A study of Mus musculus with 26 samples.

Results

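Nnt, Glo1, Wdfy1, Entpd4, Ide, Disc1, Cdh23 and Trim12a are 8 mouse genes for which inherited differences within or between inbred strains, among them C57BL/6 and relatives of 129S2/SvPas, have been described. They were followed here in every array of the series through the probe sets whose only gene symbol is a member. These are 227 of the 631748 probe sets in the deposited table: 27 for Nnt, 13 for Glo1, 18 for Wdfy1, 23 for Entpd4, 35 for Ide, 25 for Disc1, 81 for Cdh23 and 5 for Trim12a, which the platform annotation lists as Trim12. Another 18 probe sets name Trim12 together with other symbols and were kept apart.

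The series holds 26 Affymetrix Mouse Exon 1.0 ST arrays, each on amplified total RNA of a sample that the labels call an embryonic body cell, from a source given as ES EB, taken to mean embryoid bodies grown from embryonic stem cells. ES1 to ES14 carry the strain label 129S2/SvPas (n = 14) and ES15 to ES26 the label C57BL/6 (n = 12). No treatment, time, substrain, batch or scan date is given, so the strain and an unrecorded batch cannot be told apart. Values are RMA values on the log2 scale, and a gene value is the median over the brighter part of the gene's probe sets, so a difference of 1 is a doubling. The arrays were read as 4 runs in the order of their titles, ES1 to ES12, ES13, ES14 and ES15 to ES26, because ES13 and ES14 stood with ES15 to ES26 in most genes: of 18341 genes, both lay nearer to the median of ES15 to ES26 in 10855 and nearer to that of ES1 to ES12 in 2884.

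The runs also differed in which cell type markers were bright, which is needed to read the values that follow. Of 10 myeloid markers, 8 had a gene value and all 8 were higher under the label 129S2/SvPas, but their mean, 11.2 to 12.7 over ES1 to ES12, stood at only 5.36 and 5.24 for ES13 and ES14 and at 4.76 to 5.76 over ES15 to ES26; 3 of the 8 lay below the array median in every array of the last run. The mean of 8 pluripotency markers was 4.80 to 5.48 in ES1 to ES12, where 3 lay below the array median throughout, then 9.18, 8.14 and 7.05 to 11.9. That of 7 fibroblast markers was 6.27 to 7.19, 8.49, 8.73 and 8.40 to 11.0, and that of 5 primitive erythroid markers 5.56 to 6.23, 7.08, 9.88 and 5.20 to 11.9. In ES1 to ES12 the stem cell markers were thus at or near the array median. The part of these cell types in the differences of the 8 genes was not tested, and fewer cells of a type and less RNA per cell cannot be told apart in such samples.

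The 8 genes are known for different kinds of inherited change, and an exon array would show each kind differently. Nnt, the proton-pumping transhydrogenase of the inner mitochondrial membrane that makes NADPH, has lost a run of exons in the J substrain of C57BL/6. Glo1, glyoxalase I, which removes methylglyoxal with the help of glutathione, is duplicated together with neighbouring genes in some inbred strains. Wdfy1, an endosomal FYVE and WD-repeat protein that binds Toll-like receptor adaptors, and Entpd4, a lysosomal and Golgi nucleotidase, have been described as differing in level between C57BL/6 substrains. Ide, the insulin-degrading enzyme, varies in copy number among C57BL/6 mice. Disc1, a scaffold protein of neurons and centrosomes, has a short deletion inside an exon in relatives of 129S2/SvPas. Cdh23, a cadherin of the hair-cell tip link, has a variant in C57BL/6 that affects splicing and is linked with age-related hearing loss. Trim12a belongs to a cluster of closely related Trim genes around Trim5, and no kind of inherited change is named for it here.

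In the gene comparison, 5 of the 8 differed between the strain labels: Entpd4 and Trim12a were higher under 129S2/SvPas, and Nnt, Glo1 and Wdfy1 were higher under C57BL/6 (limma, Benjamini-Hochberg adjusted over all 18341 genes). Of all genes tested, 21.1% were called higher under 129S2/SvPas and 22.1% lower, so calls are common on these arrays. The counts of called neighbours and related genes given below are to be read beside these shares. None of the 8 separated the labels completely, which 0.643% of all genes did. Only Glo1 separated ES1 to ES12 from ES15 to ES26, against 14.7% of all genes. With ES4, an array that stands apart in several members, left out, Wdfy1 and Entpd4 separated these runs too, giving 3 of 8. Over all genes, 2798 of 18341 did so in that setting. With ES1 to ES12 left out, ES13 and ES14 (n = 2) against ES15 to ES26 gave a call for 0 of the 8 genes, and by limma 1 gene of 18341 passed, with 1814 at an unadjusted p under 0.05. Of the 5 called genes, Nnt then kept most of its difference, at -0.61 (SE 0.252, unadjusted p = 0.0282, adjusted p = 0.417), Glo1 was at -0.42, Trim12a at 0.29 and Wdfy1 at 0.0077, and Entpd4 turned to -0.97.

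**Figure D1:**
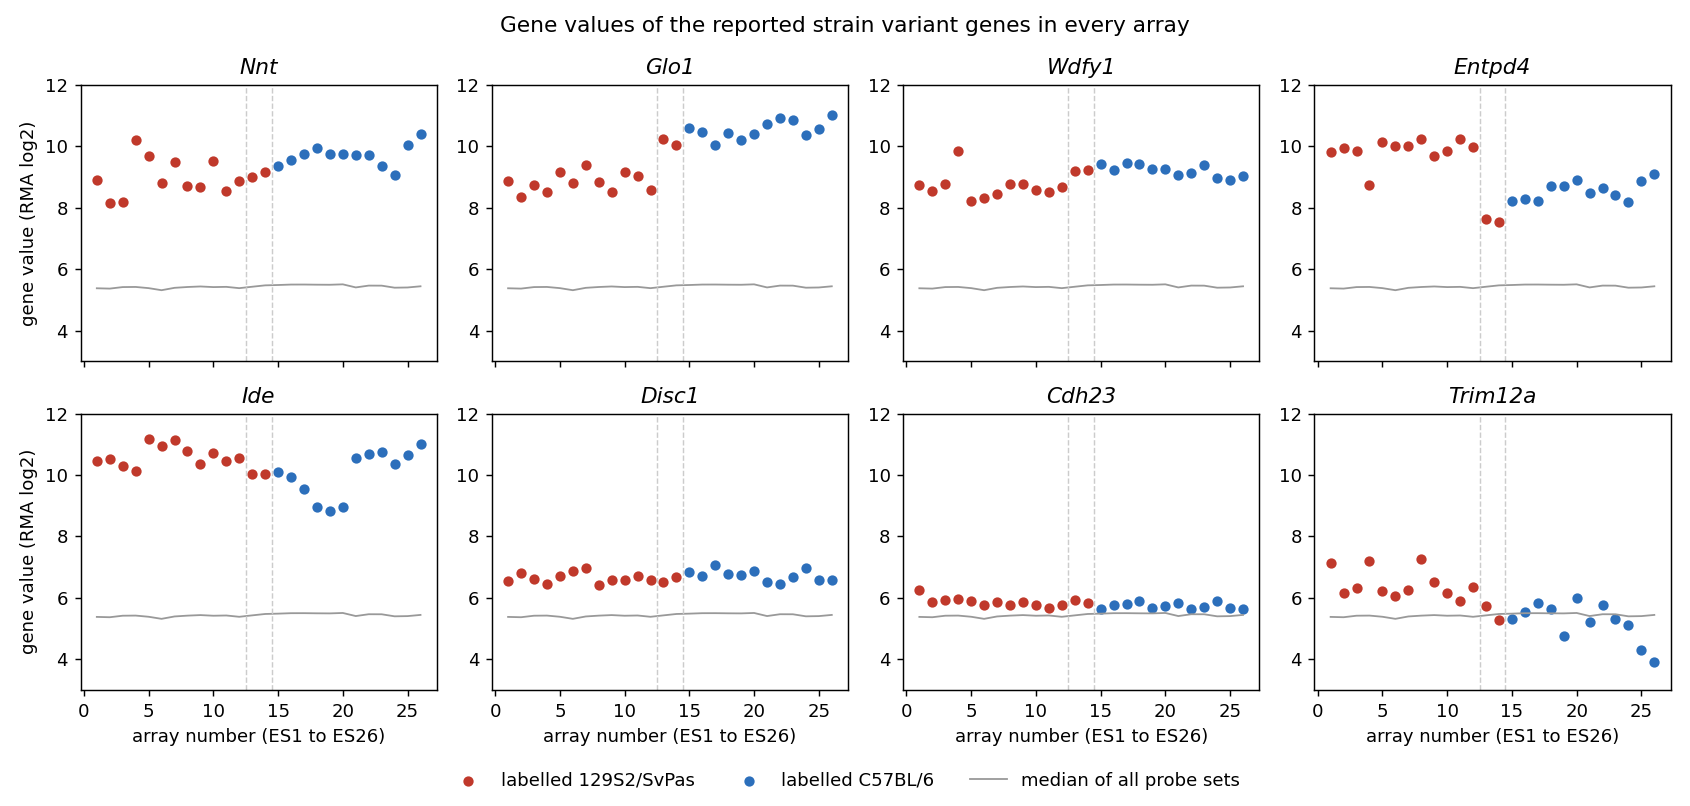
Gene value (RMA, log2) of each of the 8 genes against array number, red for arrays labelled 129S2/SvPas and blue for arrays labelled C57BL/6; the grey line is the median of all probe sets of the array and dashed lines bound ES13 and ES14. In Glo1, Entpd4 and Trim12a the red points ES13 and ES14 sit beside or beyond the blue ones, ES4 stands apart in Nnt, Wdfy1 and Entpd4, and Ide dips in ES17 to ES20.

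Within genes, no probe set bright enough to be tested was called as departing from its gene by over 1 log2 unit between the labels. The test asked whether a probe set, after subtracting the value of its gene in the same array, differed by more than 1 log2 unit (limma's treat, threshold 0.05). Of the 227 probe sets, 106 were bright enough to be tested, and 0 of them passed, against 0.66% of the 156023 tested over all genes, a background at which fewer than 1 would be called among 106. The gene means of Disc1, Cdh23 and Trim12a were below that of the median gene. Thus 0 of their probe sets were tested, and this comparison does not speak to them. With no limit on brightness, 2 probe sets passed, both of Trim12a. With ES13 and ES14 left out, 1 passed, of Wdfy1. With a minimum difference of 0 instead of 1, 43 of the 106 passed, against 36294 of the 156023 over all genes.

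**Figure D2:**
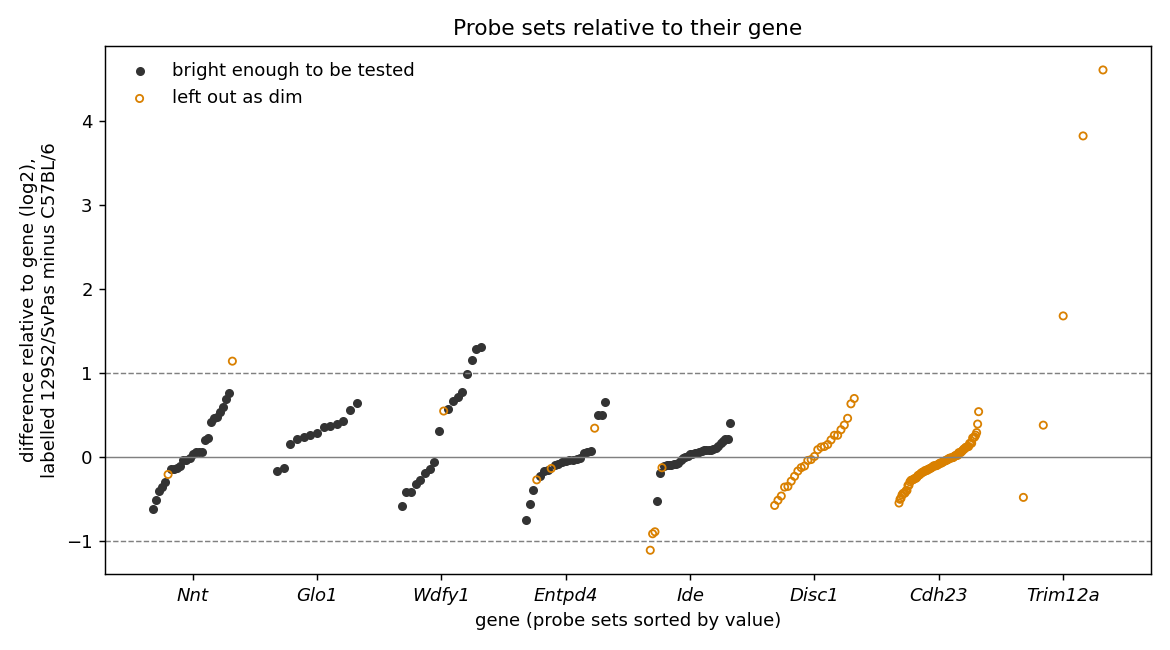
Difference of each of the 227 probe sets relative to its gene (log2, arrays labelled 129S2/SvPas minus C57BL/6), sorted within each gene; filled points were bright enough to be tested, open points were not, and dashed lines mark 1 log2 unit. Most points lie within the dashed lines, a few of Wdfy1, Nnt and Ide lie just outside, and the 2 highest open points, both of Trim12a, lie at 3.82 and 4.60.

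A second rule looked for exons lost in a run outright. It asked for probe sets below the array median in every array of a run and above it in every other array, in a gene whose own value is above the median throughout; the array median was 5.32 to 5.51. Of the 299033 probe sets in genes with at least 4, 0.792% met it for some run, and 2 of the 227 did, both in Entpd4 and both set by ES13 and ES14, described below. For ES15 to ES26 alone, where a deletion carried by C57BL/6 would show, 3 probe sets of all genes met it and 0 of the 8 genes'. For ES1 to ES14, the whole label 129S2/SvPas, 23 of all genes met it and again 0 of these. Positions of the probe sets on the genome were not used here, so exons are not numbered.

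Most Nnt probe sets gave signal in every array. Of its 27 probe sets, 23 were above the array median in all 26 arrays. The other 4 fell below it in at least 1 array, and their medians were alike or lower in ES1 to ES12 for all but the first: probe set 4759996 had a median of 5.41 in ES1 to ES12 and 5.24 in ES15 to ES26, 5172325 had 4.17 and 5.31, 5540127 had 5.46 and 5.65, and 4974002 had 6.41 in both. None of the 4 was below the array median in all 12 arrays labelled C57BL/6. A group of Nnt probe sets that falls below the array median throughout ES15 to ES26 was therefore not seen.

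Nnt as a gene was higher, not lower, under the label C57BL/6. The gene value was 8.17, 8.84 and 10.20 (lowest, median and highest) in ES1 to ES12, 9.01 and 9.17 in ES13 and ES14, and 9.07, 9.73 and 10.39 in ES15 to ES26. The runs overlap, with ES13 and ES14 inside the range of ES1 to ES12 and also close to the lowest C57BL/6 array. The mean was 9.00 ± 0.57 (SD, n = 14) under 129S2/SvPas and 9.70 ± 0.35 (SD, n = 12) under C57BL/6, a difference of -0.70 (SE 0.185, limma adjusted p = 0.00295), or 1.63-fold higher under C57BL/6. Of the 27 probe sets, 26 had the lower median in ES1 to ES12, against 157555 of 299033 over all genes. Relative to the gene, the probe set with the largest difference among those tested was 4974002, at 0.76 (SE 0.175), which did not pass; its own level hardly differed between runs while the gene moved.

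Beside Nnt on chromosome 13, 3 of the 4 nearest genes with a value passed the gene comparison and they did not share a direction. Fgf10, a fibroblast growth factor, was lower under 129S2/SvPas by the fit, at -1.07 (SE 0.347), with 5.06 to 5.93 in ES1 to ES12 but 8.88 and 8.04 in ES13 and ES14. Paip1, a translation factor that binds the poly(A)-binding protein, was lower at -0.36, and 4833420G17Rik was higher at 0.94. Of 12 genes of mitochondrial NADPH supply and peroxide defence, 5 were higher under 129S2/SvPas and 0 lower, with a median difference of 0.35 against -0.00 over all genes. The largest were Prdx5, a peroxiredoxin, at 1.58 (SE 0.325), and Gsr, glutathione reductase, at 1.23 (SE 0.207). Both had lower values in ES13 and ES14 (9.18 and 8.88 for Prdx5, 11.0 and 10.8 for Gsr) than in any array of ES1 to ES12.

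Glo1 was the member whose gene value did not overlap between ES1 to ES12 and ES15 to ES26. Its gene value was 8.34, 8.83 and 9.39 in ES1 to ES12, 10.24 and 10.04 in ES13 and ES14, and 10.04, 10.52 and 11.04 in ES15 to ES26. Every array of ES1 to ES12 was below every other array, so the 2 arrays labelled 129S2/SvPas at the end of that label were with, or at the lower edge of, the C57BL/6 arrays. The difference between labels was -1.54 (SE 0.175, limma adjusted p = 2.16e-07), 2.91-fold higher under C57BL/6, and -1.73 without ES13 and ES14. All 13 probe sets had the lower median in ES1 to ES12, against 157555 of 299033 over all genes. Of the 13, 10 did not overlap between ES1 to ES12 and ES15 to ES26, against 11.8% of all probe sets. Relative to the gene, differences ran from -0.16 to 0.64, so the probe sets moved together; the largest, 4540291 at 0.64 (SE 0.106), did not pass.

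Some genes beside Glo1 lie in the described duplication. None of the nearest ones with a value was called higher under C57BL/6. Dnah8, a dynein heavy chain, and Glp1r, the receptor of the gut hormone GLP-1, lie after Glo1 on chromosome 17, and Btbd9 and Zfand3 before it. Only Glp1r passed, and in the other direction: 0.83 higher under 129S2/SvPas (SE 0.323, limma adjusted p = 0.0388), with 5.35, 6.83 and 8.51 in ES1 to ES12, 5.84 and 5.51 in ES13 and ES14, and 5.25, 5.80 and 6.69 in ES15 to ES26. The differences of Dnah8, Btbd9 and Zfand3 were 0.41 (SE 0.225), -0.13 (SE 0.081) and 0.07 (SE 0.149), and these did not pass. Dnah8, with a median of 5.36 in ES15 to ES26, and Glp1r lay near the array median there, where a change can be hard to see. Btbd9 and Zfand3 were brighter, with medians of 9.00 and 9.55. Copy number was not tested, and the labels do not say which samples, if any, carry the duplication. Among 8 further genes of methylglyoxal removal that had a value, 4 were higher under 129S2/SvPas and 1 lower, with a median of 0.36. The largest were Akr1b8, an aldo-keto reductase, at -1.87 (SE 0.499), and Aldh2, the mitochondrial aldehyde dehydrogenase, at 1.18 (SE 0.223). Akr1b8 overlapped widely between runs, from 4.95 to 8.07 in ES1 to ES12 and from 5.61 to 10.2 in ES15 to ES26.

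**Figure D3:**
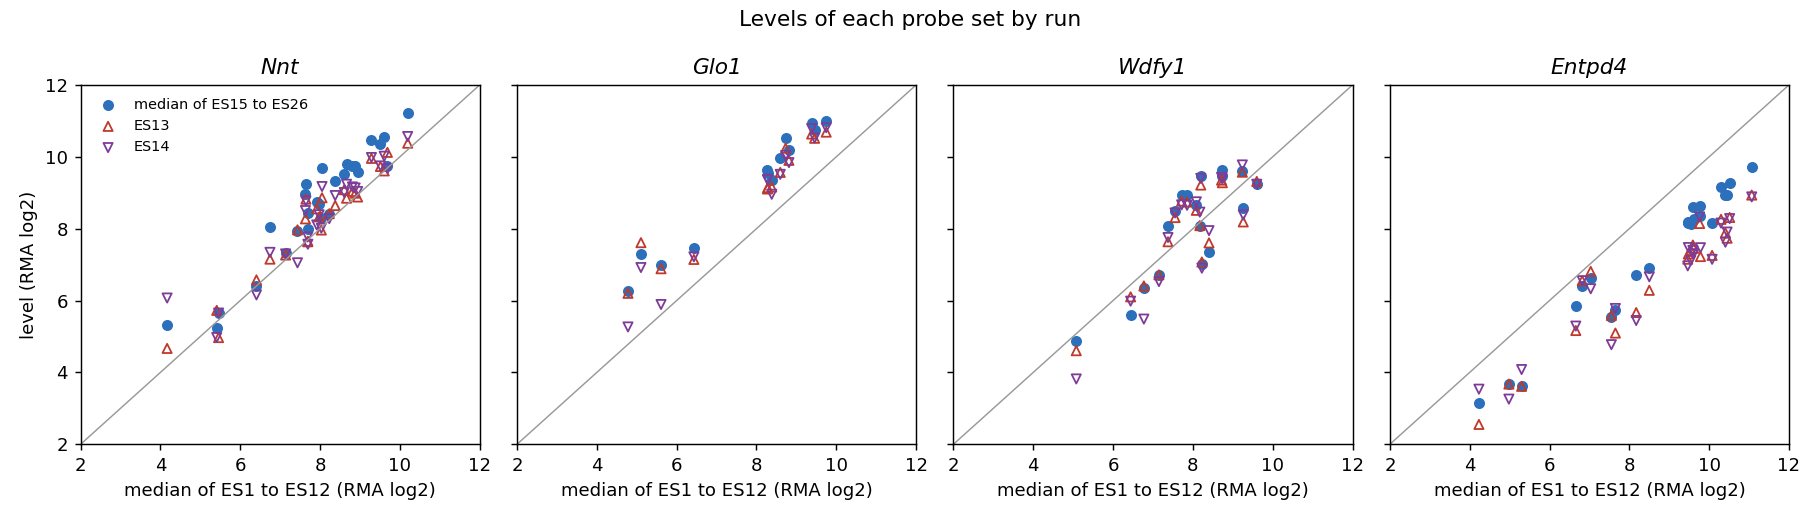
Level of each probe set (RMA, log2) of Nnt, Glo1, Wdfy1 and Entpd4 in ES15 to ES26 (blue, median), ES13 and ES14 (open triangles) against its median in ES1 to ES12; the line marks equal levels. The blue points of Glo1 and, with 1 exception, of Nnt lie on or above the line, those of Entpd4 lie below it, and those of Wdfy1 fall on both sides.

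Wdfy1 differed less as a gene than within itself. The gene value was 8.20, 8.64 and 9.84 in ES1 to ES12, 9.21 and 9.24 in ES13 and ES14, and 8.90, 9.25 and 9.46 in ES15 to ES26. The highest value of the first run is ES4; the other 11 arrays reached no higher than 8.79 and lay below every other array of the series. The difference was -0.46 (SE 0.136, limma adjusted p = 0.00754), 1.37-fold higher under C57BL/6. This call depends on the summary of the gene: with the median or the mean over all its probe sets the difference was -0.33 (adjusted p = 0.103) and -0.13 (adjusted p = 0.434).

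Of the 18 Wdfy1 probe sets, 9 had the higher and 9 the lower median in ES1 to ES12. Relative to the gene, differences ran from -0.58 to 1.30, the widest spread among the genes with probe sets bright enough to test. Probe set 4618823 was the largest: its level was 7.69, 8.40 and 8.86 in ES1 to ES12, 7.60 and 7.95 in ES13 and ES14, and 6.72, 7.35 and 7.91 in ES15 to ES26, so its median was lower in ES15 to ES26, where the gene value was higher. Its relative difference of 1.30 (SE 0.158) did not pass the limit of 1 log2 unit. Without ES13 and ES14 it was 1.47 and passed (limma adjusted p = 0.012). Probe set 5381536, chosen after its values were seen, behaved alike, with 6.81, 8.22 and 8.72 in ES1 to ES12, 7.07 and 6.90 in ES13 and ES14, and 6.80, 7.03 and 7.48 in ES15 to ES26. In contrast, 4620396, also chosen so, had 6.96, 8.20 and 10.24 in ES1 to ES12 and 8.85, 9.46 and 9.74 in ES15 to ES26, with 9.21 and 9.40 in ES13 and ES14. In the latter pair ES13 and ES14 lay inside the range of ES1 to ES12 and also inside that of ES15 to ES26. In 4618823, ES13 lay inside the range of the C57BL/6 arrays alone. ES14 lay just above that range, nearer to the median of ES1 to ES12.

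Next to Wdfy1 on chromosome 1, Ap1s3, a subunit of a clathrin adaptor, was 0.95 higher under 129S2/SvPas (SE 0.186) and Mrpl44, a mitochondrial ribosomal protein, 0.64 higher (SE 0.147). Both moved the other way from Wdfy1 as a gene. Among its relatives and the receptors it serves, 4 of 9 were higher and 3 lower. Tlr4, the lipopolysaccharide receptor found on myeloid cells, was 3.28 higher (SE 0.595), with 9.40 to 10.6 in ES1 to ES12 and at most 7.88 in the other arrays. Wdfy2, a relative of Wdfy1, was 0.80 higher (SE 0.169).

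Entpd4 was high in ES1 to ES12 and lowest in ES13 and ES14. Its gene value was 8.73, 9.97 and 10.25 in ES1 to ES12, 7.64 and 7.55 in ES13 and ES14, and 8.18, 8.55 and 9.10 in ES15 to ES26. The lowest array of the first run is again ES4; its other 11 arrays lay at 9.68 or above, clear of all 14 remaining arrays. ES13 and ES14 lay below every C57BL/6 array, on the far side from the arrays that share their label. The difference between labels was 0.99 (SE 0.264, limma adjusted p = 0.00332), 1.98-fold higher under 129S2/SvPas, and 1.31 without ES13 and ES14. With ES1 to ES12 left out it turned to -0.97 (unadjusted p = 0.000843, adjusted p = 0.15 by limma).

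All 23 Entpd4 probe sets had the higher median in ES1 to ES12, against 141476 of 299033 over all genes. All 23 had ES13 and ES14 nearer to ES15 to ES26, against 168576 of 299033. Probe sets of a gene read the same RNA and are not separate observations. The pair that met the rule for loss did so in arrays where the whole gene was low. Probe set 5185518 met it in ES14, with 6.72, 8.17 and 8.57 in ES1 to ES12, 5.66 and 5.44 in ES13 and ES14, and 5.68, 6.71 and 7.62 in ES15 to ES26. Probe set 5492856 met it in ES13 and ES14 together, at 5.16 and 5.29, with 6.15, 6.66 and 7.18 in ES1 to ES12 and 5.50, 5.85 and 6.36 in ES15 to ES26. Relative to the gene their differences between labels were -0.03 and -0.40. The largest relative difference, -0.75 (SE 0.237) for probe set 5480979, did not pass.

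Around Entpd4 on chromosome 14, Loxl2, a lysyl oxidase of the extracellular matrix, was lower under 129S2/SvPas by 3.49 on the log2 scale (SE 0.399), with 4.74 to 5.66 in ES1 to ES12, 6.83 and 7.52 in ES13 and ES14, and 6.68 to 10.9 in ES15 to ES26. Synb, a placental fusion protein derived from a retroviral envelope, and Chmp7, a membrane-remodelling protein, were lower at -0.49 (SE 0.177) and -0.36 (SE 0.104). All 3 moved against Entpd4. Of 9 other nucleotidases, 6 were higher under 129S2/SvPas and 0 lower, with a median of 0.84. Entpd6, Entpd8 and Entpd2 did not pass, at 0.07, 0.06 and -0.02. Nt5e, which makes adenosine outside the cell, was 2.46 higher (SE 0.476), and Entpd1, the ectonucleotidase of leukocytes and endothelium, 2.43 higher (SE 0.589). Entpd1 was 8.19 to 9.90 in ES1 to ES12, 5.02 and 5.01 in ES13 and ES14, and 4.65 to 8.14 in ES15 to ES26.

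Ide did not pass the gene comparison, and its low values came from part of the C57BL/6 arrays. The gene value was 10.13, 10.54 and 11.16 in ES1 to ES12, 10.04 and 10.03 in ES13 and ES14, and 8.84, 10.23 and 11.02 in ES15 to ES26. Within the last run, ES17 was at 9.54, ES18 at 8.96, ES19 at 8.84 and ES20 at 8.95, while the top of that run overlaps ES1 to ES12. The difference was 0.51 (SE 0.224, limma adjusted p = 0.0654). It came under the threshold when ES13 and ES14 were left out, at 0.60 (adjusted p = 0.032), with array weights, at 0.73 (adjusted p = 0.00248), and with arrays centred on their medians, at 0.57 (adjusted p = 0.0481). Of 35 probe sets, 30 were above the array median in all arrays. The higher median was in ES1 to ES12 for 31 of 35, against 141476 of 299033 over all genes. Of the 31 bright enough to be tested within the gene, 0 passed, and the largest relative difference was -0.52 (5314152, SE 0.254). Among those left out as dim, a relative difference of -1.11 was reached, and the loss of an exon there could be missed.

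Kif11, a spindle motor next to Ide on chromosome 19, was 0.52 higher under 129S2/SvPas (SE 0.108), and the other 3 neighbours with a value did not pass. Among 9 other proteases of its family or its substrates, 1 was higher and 4 lower. Mme, neprilysin, which also degrades amyloid peptides, was the largest at -3.24 (SE 0.557), with at most 5.26 in ES1 to ES12 and at least 6.43 elsewhere. Ece1, the endothelin-converting enzyme, was lower at -1.48 (SE 0.263).

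Disc1 and Cdh23 were too dim for the comparison within genes, and neither differed as a gene. For Disc1 the gene value was 6.41, 6.60 and 6.98 in ES1 to ES12, 6.51 and 6.67 in ES13 and ES14, and 6.45, 6.71 and 7.07 in ES15 to ES26, which overlap almost fully. The difference was -0.09 (SE 0.079, limma adjusted p = 0.386). Only 6 of its 25 probe sets were above the array median in all arrays, 3 were below it in all and 16 were mixed. The largest relative difference with no limit on brightness was 0.70, for probe set 4935705, which was below the array median in 10 of the first 12 arrays and 11 of the last 12. For the mixed and dim ones, the loss of an exon in one label could not have been seen. A deletion shorter than a probe set could also leave its level unmoved.

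Cdh23 had a gene value of 5.68, 5.85 and 6.26 in ES1 to ES12, 5.94 and 5.82 in ES13 and ES14, and 5.62, 5.72 and 5.91 in ES15 to ES26. The difference was 0.13 (SE 0.063, limma adjusted p = 0.101), and it came under the threshold when the arrays were normalized to a common distribution again (0.18, adjusted p = 0.0302) or centred on their medians (0.19, adjusted p = 0.0236). Of its 81 probe sets, 34 were below the array median in all 26 arrays and 15 above it in all. The largest relative difference was -0.55, for 5541750, with 6.32 as the median of ES1 to ES12 and 6.78 as that of ES15 to ES26.

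Of 13 Disc1 partners, 4 were higher and 5 lower under 129S2/SvPas; Atf4, a stress-response transcription factor, was 1.96 higher (SE 0.263) and Dixdc1, a Wnt pathway protein, lower at -1.38 (SE 0.191). For Dixdc1, ES13 and ES14 stood at 5.94 and 5.79, inside the 5.50 to 6.05 of ES1 to ES12. ES15 to ES26 held 6.10 to 8.35. Of 80 companion genes, 5 had both inside the range of ES1 to ES12 and not both inside that of ES15 to ES26. Over all genes, 1251 of 18341 did, a like share. Beside Disc1 on chromosome 8, Sipa1l2 was lower at -0.46 (SE 0.174). Of 11 tip-link and Usher genes with a value, 2 were higher and 2 lower, led by Myo7a, an unconventional myosin, at 1.45 (SE 0.204), and Cib2, a calcium-binding protein, at 0.73 (SE 0.182).

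All 4 neighbours of Cdh23 on chromosome 10 passed. Vsir, an immune checkpoint receptor of myeloid and T cells, was 3.02 higher (SE 0.456), with 9.87 to 11.3 in ES1 to ES12 and at most 7.70 elsewhere. Psap, a lysosomal saposin precursor, was 0.80 higher (SE 0.207), Slc29a3, a lysosomal nucleoside transporter, 0.60 higher (SE 0.169), and Chst3, a chondroitin sulfotransferase, lower at -0.29 (SE 0.111).

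Among the 8 genes, Trim12a held the probe sets with the largest relative differences. Its gene value was 5.89, 6.28 and 7.28 in ES1 to ES12, 5.74 and 5.28 in ES13 and ES14, and 3.90, 5.30 and 5.99 in ES15 to ES26. The difference was 1.10 (SE 0.224, limma adjusted p = 0.000268), 2.14-fold higher under 129S2/SvPas, with ES13 and ES14 inside the range of the C57BL/6 arrays. The size depends on the summary of the gene: taken over all 5 probe sets, the median gave a difference of 3.27 and the mean 3.10. Its mean over all arrays was below that of the median gene (percentile 26.3), so its probe sets were outside the within-gene test. Because the gene value was above the array median in only 18 of 26 arrays, they were also outside the rule for loss. ES25, at 4.31, and ES26, at 3.90, were the lowest arrays of the series for this gene.

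Of its 5 probe sets, 4927322 and 4716285 fell the most. Probe set 4927322 was 7.47, 8.56 and 9.19 in ES1 to ES12, 1.68 and 1.66 in ES13 and ES14, and 1.52, 1.82 and 2.33 in ES15 to ES26. Probe set 4716285 was 7.40, 8.50 and 9.03, then 3.48, 3.29 and 1.82, 2.67 and 3.76. The groups lie far apart, with ES13 and ES14 wholly with the arrays labelled C57BL/6. With no limit on brightness both passed the within-gene test, at relative differences of 4.60 and 3.82. Their levels in ES13 to ES26 are far below the array median, where the arrays' background is not known, so these sizes are not exact. Without a requirement on the gene value both met the rule for loss in ES13 to ES26. Probe set 4504300 was 7.40, 8.24 and 9.41 in ES1 to ES12, 6.00 and 5.28 in ES13 and ES14, and 3.52, 5.43 and 6.40 in ES15 to ES26. Probe set 4747567, at 5.88 to 6.72 in ES1 to ES12 and 4.31 to 6.17 in ES15 to ES26, overlapped between the runs.

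**Figure D4:**
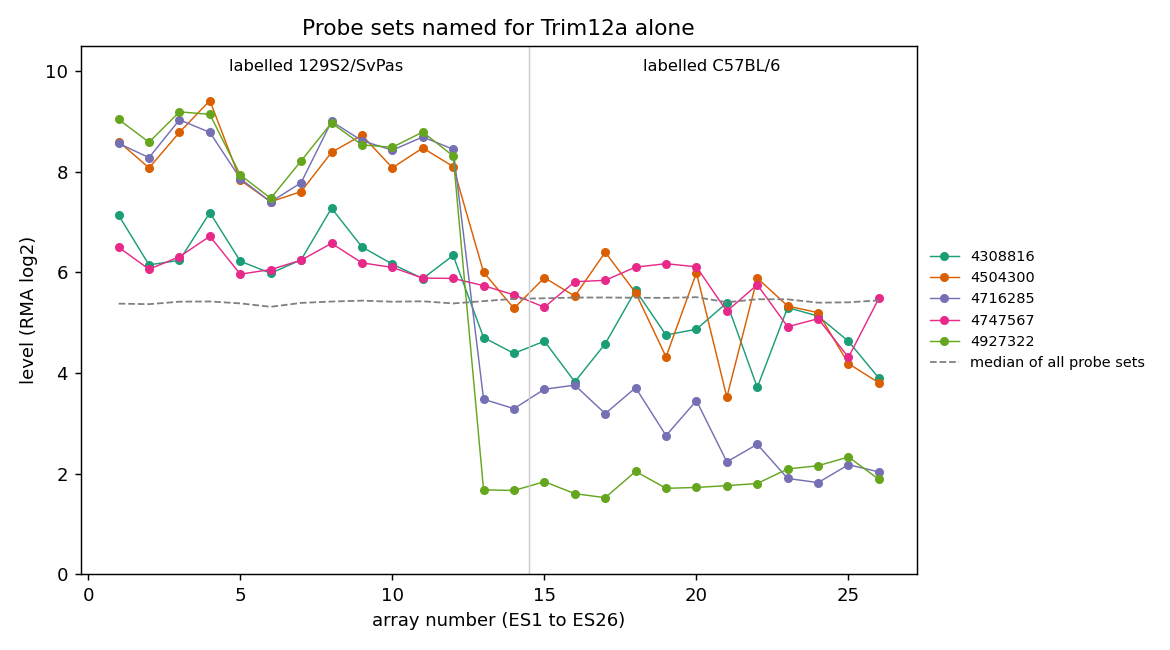
Level (RMA, log2) of the 5 probe sets named for Trim12a alone in each array; the dashed line is the median of all probe sets and the vertical line parts the labels. Probe sets 4927322 and 4716285 drop between ES12 and ES13, within the label 129S2/SvPas, and stay below the dashed line from ES13 to ES26.

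The same step appeared in the 18 probe sets that Trim12 shares in the annotation with 9230105E10Rik or EG667823, which cannot be assigned to a single gene of the cluster. All 18 had the higher median in ES1 to ES12, by 1.69 to 5.14, against 141476 of 299033 probe sets over all genes. In 17 of 18 every array of ES1 to ES12 was above every array of ES13 to ES26. The share of all probe sets that did so was not counted. For ES1 to ES12 and ES15 to ES26 alone, 11.8% did not overlap, in either direction. In 13 of the 18 both ES13 and ES14 were inside the range of ES15 to ES26, and in 0 inside that of ES1 to ES12. Over all genes, 7194 of 18341 had the first placing. Of the 18, 12 had ES25 and ES26 below all arrays of ES15 to ES24. Probe set 5246074 was an example: 8.75, 9.38 and 9.94 in ES1 to ES12, 7.36 and 6.74 in ES13 and ES14, and 2.19, 6.90 and 7.73 in ES15 to ES26.

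Other Trim genes moved the same way: 8 of the 9 tested were higher under 129S2/SvPas and 0 lower, with a median of 1.24. Trim30d was 3.07 higher (SE 0.352) and Trim30a, a regulator of Toll-like receptor signalling, 3.05 higher (SE 0.568). All 4 neighbours of Trim12a on chromosome 7 passed: Trim5 at 1.94 (SE 0.305), Trim30b at 1.27 (SE 0.167), Trim12c at 1.24 (SE 0.34) and Trim34a at 0.71 (SE 0.224). Trim6 did not pass, at -0.08. Probes for such near copies can bind each other's RNA, so these genes are not independent measurements. The myeloid markers given above stepped at the same point, between ES12 and ES13.

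Because Trim12a and its cluster were high in the arrays with bright myeloid markers, the 250 bases before its start were searched for the core site of PU.1, a transcription factor of myeloid cells, spelled GAGGAAGT, and for an interferon-response spelling, GAAANNGAAA, on both strands. The spellings were chosen after the values were seen, and they share no overlap here. The stretch is chr7:104315496-104315745, minus strand, GRCm38.p6, from RefSeq, with the PU.1 spelling (reverse strand) in capitals.

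Trim12a upstream: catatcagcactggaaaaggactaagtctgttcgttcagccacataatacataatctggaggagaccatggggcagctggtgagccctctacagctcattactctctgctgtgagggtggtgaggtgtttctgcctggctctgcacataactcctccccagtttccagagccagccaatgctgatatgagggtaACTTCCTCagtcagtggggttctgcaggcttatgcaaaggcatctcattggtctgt

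The PU.1 spelling lies 56 bases before the start. The interferon-response spelling was found as TTTCTGTTTC 11 bases after the start, in the 50 bases beyond it that were also searched. Of 32851 mouse promoters of 300 bases, 3.2% hold the first and 3.44% the second. Promoters were at hand for 5 of the 8 genes; those of Glo1, Ide, Disc1 and Cdh23 hold neither spelling. A match is a description of letters only.

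A single array, ES4, departed from the rest of its run in 4 of the 8 genes. Nnt was 10.20 in ES4 and 8.17 to 9.67 in the other 11 arrays of ES1 to ES12; Wdfy1 was 9.84 against 8.20 to 8.79; Entpd4 was 8.73 against 9.68 to 10.25; Ide was 10.13 against 10.29 to 11.16. Nnt and Entpd4 in ES4 lay inside the range of the arrays labelled C57BL/6, and Wdfy1 above it. Glo1, Disc1, Cdh23 and Trim12a in ES4 were inside the range of the other 11, and the mean of its myeloid markers, 12.6, was among the highest of its run.

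The departure ran through most of each gene rather than single exons. ES4 was above the other 11 arrays in 21 of 27 Nnt probe sets and 13 of 18 Wdfy1 probe sets, and below them in 20 of 23 of Entpd4 and 20 of 35 of Ide. Over all 299033 probe sets, it was above in 13.1% and below in 19.0%. Its gene values lay outside those of the other 11 by more than 0.5 in 4.63% of genes. Nnt (0.53), Wdfy1 (1.06) and Entpd4 (0.95) exceeded that gap, and Ide (0.16) did not. The share of all genes outside by any gap was not counted. For each of the other arrays the share past 0.5 was 0.109% to 1.53%, so ES4 stood apart widely and not in these genes alone. Without it the gene comparison again called 5 of the 8, with -0.80 for Nnt, -0.54 for Wdfy1 and 1.05 for Entpd4.

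ES13 and ES14, read over the 8 genes, stood about as they did over all genes. They lay nearer to the median of ES15 to ES26 in Glo1, Wdfy1, Entpd4, Ide and Trim12a (5 of 8, against 10855 of 18341 genes). They lay nearer to that of ES1 to ES12 in Nnt and Cdh23 (2 of 8, against 2884 of 18341) and were split in Disc1. Glo1 was the only member among the 2689 genes in which ES1 to ES12 and ES15 to ES26 did not overlap. Of these, 2480 had ES13 and ES14 nearer to ES15 to ES26 and 73 nearer to ES1 to ES12. Nnt and Cdh23 were the members with both inside the range of ES1 to ES12 but not both inside that of ES15 to ES26. Over all genes, 1251 of 18341 had this placing. In Nnt and in Cdh23, ES14 lay inside the ranges of both runs and only ES13 lay outside that of ES15 to ES26. The runs themselves overlap in these genes. None of the 8 genes separated all 26 arrays by strain label. Of their 227 probe sets, 0 did so in level or in level relative to the gene. Of all genes, 0.643% separated the labels, so a count of 0 is near that share. The share over all probe sets was not counted. For the genes and probe sets that moved, the run, the cell type markers and the strain cannot be told apart.

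The genes whose pattern over the 26 arrays was most like each member's were found by the mean absolute difference after subtracting each gene's own median. For Nnt they were Extl2 (0.234) and Gpat4 (0.262), and for Glo1 Ttc26 (0.171) and Bod1 (0.22). Wdfy1 was closest to Fbxo30 (0.168) and Pan2 (0.17), Entpd4 to Pla2g15 (0.221) and Pkig (0.243), and Ide to Trmt6 (0.172) and Bud23 (0.179). For Trim12a the nearest, Kmt5c (0.328) and Kbtbd7 (0.33), were farther off. Disc1 and Cdh23, which hardly moved, were closest to other genes that hardly moved, Ppp2ca (0.105) and Cfap65 (0.117) for the first, Otog (0.103) and Ros1 (0.107) for the second.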

How the data were processed

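The authors deposited RMA values, made with Affymetrix Expression Console in its extended-exon mode per the labels (version not given in the sources used here) and taken as log2 per probe set from RMA convention and their range, 0.831 to 15.6. Symbols came from the platform annotation, updated through the RefSeq gene table of GRCm38.p6. Gene values are medians over the brighter 50% (rounded up) of a gene's probe sets; 18341 genes with at least 4 entered a limma fit (version 3.58.1, R 4.3.3; lmFit, eBayes with trend, two-sided, Benjamini-Hochberg, threshold 0.05), differences being 129S2/SvPas minus C57BL/6. Within genes, the gene value was subtracted and 156023 probe sets above the median of all probe sets, in genes above the median gene, were tested with treat at 1 log2 unit. Both fits were tested on simulated data. All 8 genes, their probe sets past a threshold or else the one with the largest difference, the neighbours past the threshold and the 2 largest companions of each list were named. Members and lists were chosen with earlier results of these data known. No source says whether samples are separate cultures or animals; p-values thus measure the spread between these samples only, and it may be technical. Arrays give no read depth, and their number limits the precision.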

Additional observations from a re-analysis of the deposited data

How the results depend on the processing

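The number of genes past the threshold by limma (7931) fell to 4841 without the dimmer 50% of genes and to 1 without ES1 to ES12, where the number of the 8 genes went from 5 to 0, Wdfy1 turned to 0.0077 and Entpd4 to -0.97, while Nnt stayed at -0.61 against -0.70. The number of probe sets past the threshold within genes (1029) became 2414 with no limit on brightness, 36294 with a minimum difference of 0, 2683 with array weights, 3461 without ES13 and ES14 and 0 without ES1 to ES12; leaving out each array in turn gave 790 to 2032, the 2 largest counts without ES13 (2003) and ES14 (2032). Of the probe sets of the 8 genes (0), 2, 43 and 1 passed with no limit on brightness, with a minimum difference of 0 and without ES13 and ES14. The number called lost in a run (2) was 1 and 0 with the 40th and 60th percentile of the array as the mark and 4 with no requirement on the gene value. ES13 and ES14 were both in the range of ES1 to ES12, and not both in that of ES15 to ES26, in 2 members. This number was 1 when all probe sets entered the gene median and 0 when they entered a mean. Wdfy1 lost its call when all probe sets entered the gene value (-0.33 and -0.13, adjusted p by limma 0.103 and 0.434), and Trim12a rose from 1.10 to 3.27 and 3.10, since the brighter part leaves out its 2 probe sets with the largest differences. Cdh23 and Ide gained a call under some settings, Ide with an adjusted p of 0.00248 with array weights; the cause was not tested. Ide passed when ES13, ES14, ES22, ES23, ES25 or ES26 was left out, with 0.40 to 0.60 over all arrays left out in turn. Over the same, Nnt ranged from -0.80 to -0.64, Glo1 from -1.63 to -1.49, Wdfy1 from -0.54 to -0.42, Entpd4 from 0.93 to 1.14 and Trim12a from 0.98 to 1.18. The comparison of runs without ES4 was added after seeing the data. Dim probe sets limit what can be said of Disc1 and Cdh23. No paired analysis was possible because the groups share no replicate numbers.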
